A study of Arabidopsis thaliana with 16 samples.

Results

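The 10 genes described here are regulators of the Arabidopsis iron deficiency response: the bHLH subgroup Ib transcription factors BHLH38, BHLH39, BHLH100 and BHLH101, the IRON MAN peptides IMA1, IMA2 and IMA3, the phloem iron transporter OPT3, the repressor PYE and the ubiquitin ligase BTS. These members were chosen by locus code out of 27416 genes in the deposited count table, and all 10 passed the filter on low counts. RNA came from whole seedlings of Arabidopsis thaliana kept on agar plates, with no accession or mutant named. Ethanol was given as gas for 1 d to seedlings 13 d old (4 libraries) or for 3 d to seedlings 11 d old (4 libraries), and the controls, whose label "moc" is not spelled out, were taken at the same durations (3 libraries each used here). The series title speaks of freezing stress, but no label records a freezing step. Each library is a pool of 3′-end reads from total RNA of the whole plant, so that fewer cells of a type and less RNA per cell cannot be told apart. The labels do not say that replicates came from separate plates or cultures, so each p-value reflects library-to-library spread that may be partly or wholly technical.

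Plants short of iron switch on a cascade that has been worked out mainly in Arabidopsis. Transcription factors of bHLH subgroup IVc (ILR3, bHLH34, bHLH104, bHLH115), with bHLH121 as a partner, activate the subgroup Ib genes, PYE and the IMA genes. The Ib proteins pair with the root regulator FIT (listed as FRU in RefSeq) to drive FRO2, which reduces ferric iron at the root surface, and IRT1, which takes up ferrous iron. BTS marks the IVc factors for degradation, and the IMA peptides, short proteins with an aspartate-rich end, bind BTS and hold it off its targets. OPT3 loads iron into the phloem, and its loss turns on the deficiency response in roots. Transcripts of the Ib and IMA genes are widely used as readouts of a low iron status.

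The library labelled control 3 d replicate 1 held the highest level of 7 of the 10 members, so the main results that use it are given with and without it. The deposited columns labelled control 1 d replicate 1 and control 3 d replicate 3 hold identical counts, 1 such pair among 120 pairs of columns, and both were left out. Total counts ranged from 3695511 to 15943927 per library, at which 3 counts are worth 0.188 to 0.812 CPM, the unit of level used throughout (counts scaled to a common library total). The smallest count of any member was 13, for BHLH101 in ethanol 3 d replicate 1. The 12 root markers and the 7 phloem companion cell markers were detected in every library. Their summed levels were 1224 to 1570 and 413 to 505 CPM, so the labelled whole plant held both tissues throughout.

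BHLH38 and BHLH39 are neighbours on the same strand. In the TAIR10.1 annotation of RefSeq, BHLH38 (AT3G56970) lies at chr3:21084035-21085245 on the minus strand and BHLH39 (AT3G56980) at chr3:21086390-21087710 on the minus strand, 1144 bases apart. BHLH100 (AT2G41240) lies at chr2:17198037-17199454 on the minus strand, and BHLH101 (AT5G04150) at chr5:1138410-1139633 on the minus strand. IMA2 (AT1G47395, chr1:17382998-17383830) and IMA1 (AT1G47400, chr1:17385707-17386485) also sit in tandem, on the plus strand with 1876 bases between them, while IMA3 (AT2G30766) is at chr2:13107583-13110480 on the plus strand. OPT3 (AT4G16370) is at chr4:9247302-9250343 on the minus strand, PYE (AT3G47640) at chr3:17567126-17569394 on the plus strand and BTS (AT3G18290) at chr3:6273966-6280562 on the plus strand. RefSeq lists the 3 IMA loci as uncharacterized proteins, and their names here come from the list of members.

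The sequence just upstream of these genes is shown because bHLH proteins bind the letters CANNTG, of which CACGTG, the G-box, is a well-known form. In the 250 bases before the annotated gene start, CACGTG, which reads the same on both strands, was found in 4 of the 10 members (BHLH38, BHLH100, OPT3 and BTS). It was found in 6.58% of 26718 such windows over the genes of the count table, and in 7.38% of 18244 windows over the tested genes. Every CACGTG is also a CANNTG, which 55.3% of the 26718 windows held. The windows of the tandem Ib pair, of BHLH100, of BTS with its 3 copies and of IMA1 follow, written 5′ to 3′ on the gene's strand with CACGTG in capitals, from RefSeq's TAIR10.1 assembly.
BHLH38 (chr3:21085246-21085495, minus strand): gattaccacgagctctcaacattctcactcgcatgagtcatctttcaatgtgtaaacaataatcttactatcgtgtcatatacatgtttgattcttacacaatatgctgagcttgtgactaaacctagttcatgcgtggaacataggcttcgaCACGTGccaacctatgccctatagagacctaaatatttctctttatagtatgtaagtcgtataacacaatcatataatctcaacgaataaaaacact
BHLH39 (chr3:21087711-21087960, minus strand): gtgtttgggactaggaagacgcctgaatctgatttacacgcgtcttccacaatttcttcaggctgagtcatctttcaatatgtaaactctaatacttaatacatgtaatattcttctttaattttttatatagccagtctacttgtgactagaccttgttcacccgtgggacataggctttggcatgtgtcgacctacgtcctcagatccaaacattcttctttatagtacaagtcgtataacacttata
BHLH100 (chr2:17199455-17199704, minus strand): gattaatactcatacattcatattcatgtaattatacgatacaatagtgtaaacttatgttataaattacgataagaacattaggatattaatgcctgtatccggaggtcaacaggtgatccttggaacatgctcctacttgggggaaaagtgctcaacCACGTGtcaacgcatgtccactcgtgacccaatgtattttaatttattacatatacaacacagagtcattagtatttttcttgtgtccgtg
BTS (chr3:6273716-6273965, plus strand): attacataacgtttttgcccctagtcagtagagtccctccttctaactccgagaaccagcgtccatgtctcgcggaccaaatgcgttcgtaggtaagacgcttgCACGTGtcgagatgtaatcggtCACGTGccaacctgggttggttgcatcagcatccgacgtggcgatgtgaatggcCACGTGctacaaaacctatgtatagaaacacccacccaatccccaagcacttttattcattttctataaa
IMA1 (chr1:17385457-17385706, plus strand): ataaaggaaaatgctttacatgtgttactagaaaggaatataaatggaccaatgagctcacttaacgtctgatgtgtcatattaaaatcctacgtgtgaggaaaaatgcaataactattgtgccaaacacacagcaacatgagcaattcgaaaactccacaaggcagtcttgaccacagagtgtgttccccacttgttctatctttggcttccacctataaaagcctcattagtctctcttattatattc

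The first base of the motif lay 97 bases before the start of BHLH38 and 91 bases before that of BHLH100. BTS carried it at 146, 124 and 70 bases, and OPT3, whose window is not printed, at 78 bases. The window of BHLH39 held 1 CANNTG word, CATGTG, at 67 bases, and that of IMA1 held CATGTG at 232 bases and CACTTG at 60 bases. The windows of BHLH101 and PYE held no CANNTG. A match describes letters in the window and is not evidence of binding.

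Levels of the subgroup Ib genes were led by single libraries. BHLH38, an activator of iron uptake genes, stood at 12.3, 18.6 and 13.3 CPM in the 1 d controls and at 10.7, 5.06, 9.99 and 12.6 CPM in the seedlings given ethanol for 1 d. In the 3 d controls it was 39.3 CPM in replicate 1 but 8.72 and 8.41 CPM in replicates 2 and 4, and after 3 d of ethanol it was 5.58, 7.79, 5.99 and 10.1 CPM. The highest value was thus a control, the other controls at 3 d lay inside the range of the ethanol libraries, and groups overlapped at both durations.

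BHLH39, its tandem neighbour and a partner of FIT, had 10.2, 13.8 and 10.0 CPM in the 1 d controls against 10.9, 5.43, 6.54 and 7.50 CPM with ethanol. At 3 d its controls had 22.5, 7.06 and 8.67 CPM, against 2.60, 8.06, 2.68 and 4.25 CPM with ethanol. Ethanol replicates 1, 3 and 4 at 3 d lay below every control, and replicate 2 lay among them.

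BHLH100 followed the same libraries. It had 7.53, 19.3 and 7.71 CPM in the 1 d controls and 9.43, 3.62, 6.30 and 9.02 CPM after 1 d of ethanol, then 28.7, 6.50 and 8.15 CPM in the 3 d controls and 5.95, 8.06, 3.47 and 6.03 CPM after 3 d of ethanol. BHLH101, the member with the lowest counts, ranged from 2.95 to 9.07 CPM in the 1 d controls, from 2.53 to 7.88 CPM after 1 d of ethanol, from 3.87 to 7.68 CPM in the 3 d controls and from 2.42 to 6.72 CPM after 3 d of ethanol. Its highest value came from control 1 d replicate 3, not from control 3 d replicate 1.

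The IMA genes, which encode the peptides that bind BTS, were high in some of the same libraries. IMA1 had 20.1, 44.0 and 23.4 CPM in the 1 d controls and 30.3, 14.5, 15.0 and 17.1 CPM after 1 d of ethanol. It had 35.9, 16.3 and 22.8 CPM in the 3 d controls and 16.7, 18.8, 15.4 and 17.7 CPM after 3 d of ethanol. The 4 ethanol libraries at 3 d were close together, and the lowest control lay inside their range.

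IMA2 had 21.1, 38.8 and 19.5 CPM in the 1 d controls, 29.8, 19.9, 14.6 and 21.4 CPM after 1 d of ethanol, 46.5, 15.4 and 18.0 CPM in the 3 d controls, and 11.0, 14.2, 13.4 and 20.6 CPM after 3 d of ethanol. IMA3 had 68.0, 110.9 and 71.7 CPM in the 1 d controls, 80.0, 48.1, 43.7 and 46.9 CPM after 1 d of ethanol, 114.3, 49.4 and 60.7 CPM in the 3 d controls, and 45.8, 53.5, 38.9 and 33.9 CPM after 3 d of ethanol. For IMA3, ethanol replicate 1 was the only ethanol library at 1 d to reach the range of the controls.

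**Figure D1:**
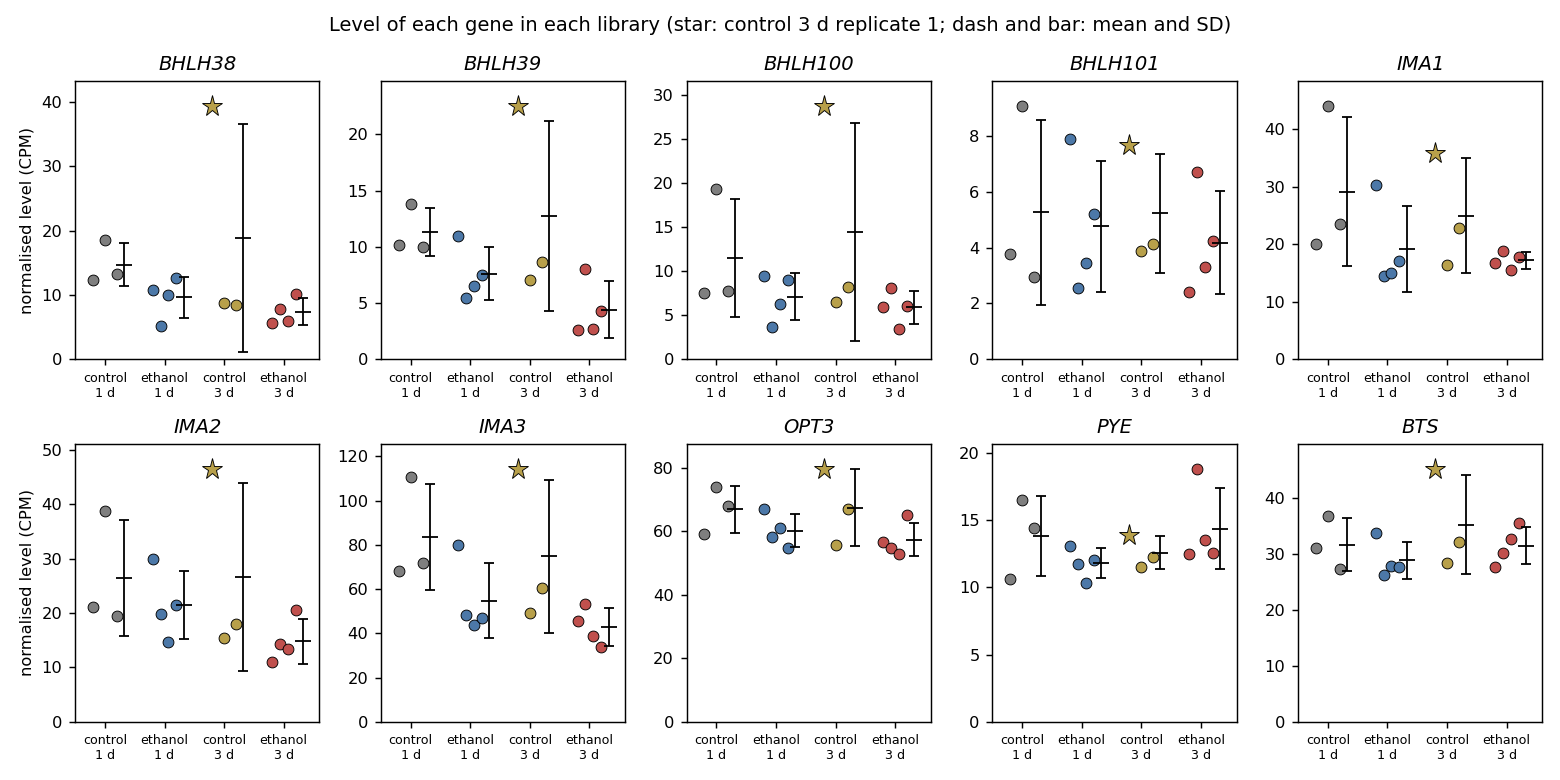
Normalised level of each member (CPM, vertical axes from 0) in every library of the 4 groups, with the mean and SD of each group beside the points. The star, control 3 d replicate 1, reaches 39.3 CPM for BHLH38 while the other 3 d controls sit at 8.72 and 8.41 CPM, and the spread of OPT3, PYE and BTS is much narrower.

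OPT3, PYE and BTS were steadier. OPT3 ranged from 59.0 to 73.8 CPM in the 1 d controls, from 54.7 to 67.1 CPM after 1 d of ethanol, from 55.6 to 79.6 CPM in the 3 d controls and from 52.9 to 65.0 CPM after 3 d of ethanol. PYE, a bHLH repressor of iron transport genes, ranged from 10.6 to 16.5, from 10.3 to 13.1, from 11.5 to 13.9 and from 12.5 to 18.8 CPM in the same order of groups. BTS ranged from 27.2 to 36.7, from 26.2 to 33.7, from 28.4 to 45.2 and from 27.7 to 35.4 CPM.

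Summed over the Ib genes, the order of the group means was control 3 d (51.3 ± 40.7 CPM, SD, n = 3), control 1 d (42.8 ± 15.5, n = 3), ethanol 1 d (29.0 ± 9.78, n = 4) and ethanol 3 d (21.8 ± 7.16, n = 4). Neighbours in this order overlapped, and without control 3 d replicate 1 the 3 d controls had 27.8 CPM and ranked below ethanol 1 d. The summed IMA level was 139.2 ± 47.3 CPM in the 1 d controls, 126.4 ± 61.7 in the 3 d controls (91.3 CPM without replicate 1), 95.3 ± 30.3 after 1 d of ethanol and 75.0 ± 8.07 after 3 d of ethanol, with the same groups and n. Ethanol for 3 d had the lowest mean of the 4 groups for 8 of the 10 members, and for 7 without control 3 d replicate 1, when BHLH101 was lower in the 3 d controls. PYE had its highest mean there, 14.4 ± 3.01 CPM, while BTS, at 31.5 ± 3.32 CPM, lay below both control means (SD, n = 4 each). For BTS these were 31.6 CPM at 1 d, which is nearly the same, and 35.2 CPM at 3 d. Without control 3 d replicate 1 the 3 d control mean of BTS was 30.2 CPM, below that of ethanol 3 d.

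The first comparison asked what 1 d of gaseous ethanol did. No member passed edgeR's quasi-likelihood test, with p-values adjusted by Benjamini-Hochberg over the 18419 genes tested and a threshold of 0.05. The share of all tested genes called was 0%, so this count says nothing particular to the members. Over all genes 795 had an unadjusted p under 0.05, 4.32% of those tested, none of them a member, and DESeq2 called 0 genes as well.

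All 10 fitted differences at 1 d were negative, with a median of -0.40 on the log2 scale beside 0.003 over all tested genes, of which 49% were negative. The members varied together between libraries, so their signs are not independent. They also leaned on 1 control: without control 1 d replicate 3 the median was -0.05, BHLH101 was at 0.57 and IMA2 at 0.11, and BHLH100 and IMA1 were at -0.03 and -0.11. BHLH101 was also above 0, at 0.08 or 0.06, without ethanol 1 d replicate 2 or 3. With all 14 libraries the values were -0.57 (SE 0.51) for BHLH38, -0.52 (SE 0.42) for BHLH39, -0.64 (SE 0.55) for BHLH100 and -0.08 (SE 0.46) for BHLH101, each with an adjusted p of 0.9996 in edgeR's test. IMA1 had -0.55 (SE 0.35), IMA2 -0.28 (SE 0.41) and IMA3 -0.59 (SE 0.32, unadjusted p 0.095 from the same edgeR fit). OPT3, PYE and BTS had -0.14 (SE 0.10), -0.21 (SE 0.16) and -0.13 (SE 0.12).

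These 1 d estimates have wide intervals for the Ib genes. The 95% interval of BHLH38 ran from -1.71 to 0.57 and that of BHLH100 from -1.87 to 0.59, while that of OPT3 ran from -0.34 to 0.05. Control 3 d replicate 1 is not part of this comparison but enters the shared estimate of the spread. Without it the estimate for BHLH38 was again -0.57 but its SE was 0.20 and its unadjusted edgeR p 0.0072, with an adjusted p of 0.855. BHLH39 and IMA3 then had unadjusted edgeR p-values of 0.035 and 0.048, and no member was called.

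The second comparison asked what 3 d of ethanol did. Here 102 genes were called, 81 higher and 21 lower, which is 0.554% of the genes tested, and 0 of the 10 members were among them. The fitted difference was largest for the tandem Ib pair and for BHLH100. BHLH39 had a log2 fold change of -1.58 (SE 0.51, 95% interval -2.71 to -0.45, unadjusted p 0.011, adjusted p 0.355 in edgeR's test). BHLH38 had -1.29 (SE 0.58, unadjusted p 0.051, adjusted p 0.569), BHLH100 -1.28 (SE 0.64, adjusted p 0.614) and BHLH101 -0.35 (SE 0.54, adjusted p 0.914), all from the same edgeR fit.

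For the IMA genes the 3 d values were -0.52 (SE 0.40) for IMA1, -0.80 (SE 0.47) for IMA2 and -0.80 (SE 0.35) for IMA3, with edgeR adjusted p-values of 0.781, 0.687 and 0.552. OPT3 had -0.22 (SE 0.10, unadjusted p 0.032, adjusted p 0.501 by edgeR), PYE 0.17 (SE 0.17) and BTS -0.14 (SE 0.13). The median over the 10 members was -0.66, against -0.001 over all genes, and 9 of 10 were negative beside 50.2% of all genes. Members with an unadjusted edgeR p under 0.05 numbered 3 of 10 (BHLH39, IMA3 and OPT3), beside 8.82% of all tested genes. DESeq2 gave 5 of 10 such members, for which the share of all genes by that tool is not given here. The members varied together between libraries, so neither count is one of independent genes. DESeq2 called 0 members, with BHLH39 lowest at an adjusted p of 0.142.

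Most of the 3 d difference rested on 1 control library. Without control 3 d replicate 1 the median over the members was -0.19, the Ib median went from -1.29 to -0.30 and the IMA median from -0.80 to -0.20. BHLH38 moved to -0.23 (SE 0.27, adjusted p 0.927), BHLH100 to -0.37 (SE 0.54), BHLH101 to -0.003 (SE 0.57) and BTS from below 0 to 0.06 (SE 0.13), all by edgeR. BHLH39 moved from -1.58 to -0.94 (SE 0.33, 95% interval -1.61 to -0.26), with an unadjusted edgeR p of 0.0087 and an adjusted p of 0.425. The count over all genes also dropped, from 102 to 43.

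**Figure D2:**
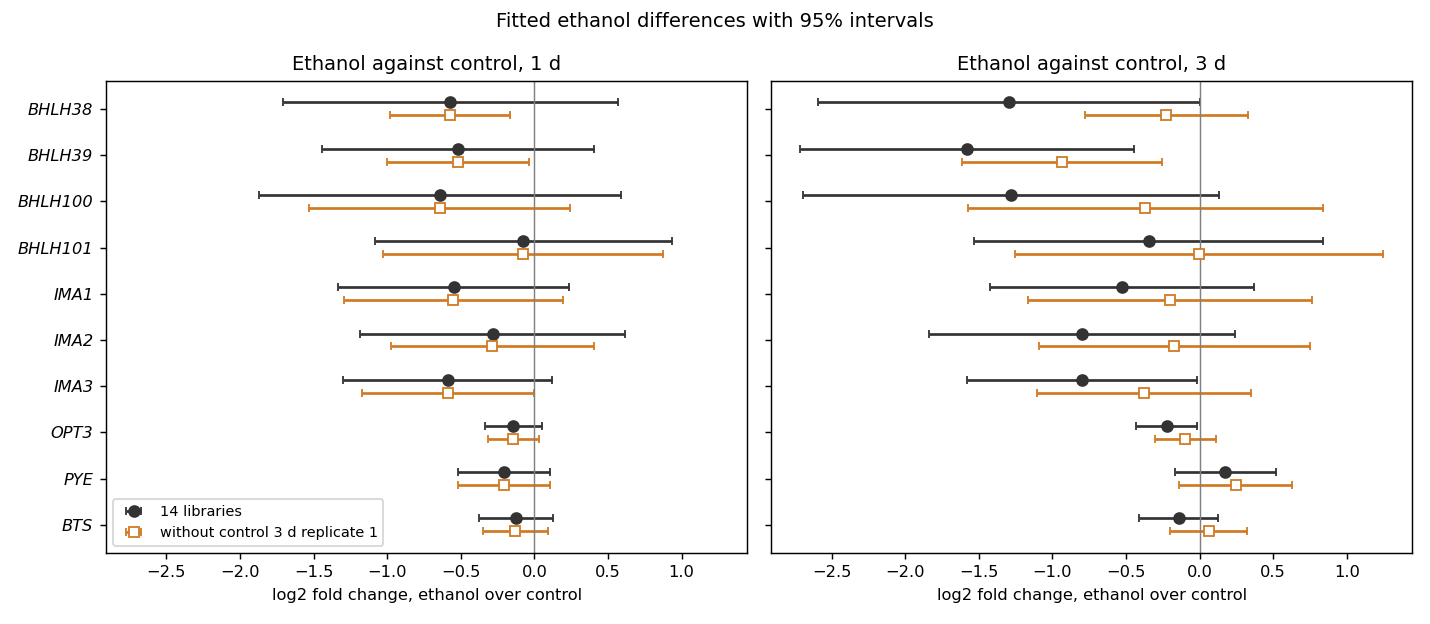
Fitted log2 fold change, ethanol over control, of each member at 1 d (left) and 3 d (right) with 95% intervals, from the fit of 14 libraries (filled circles) and without control 3 d replicate 1 (open squares). At 3 d the Ib estimates shift towards 0 without that library, BHLH38 from -1.29 to -0.23, and BHLH39 from -1.58 to -0.94; at 1 d the estimates hardly move and the interval of BHLH38 narrows.

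The effect of duration was examined in each treatment. A 3 d and a 1 d group differed in when treatment began as well as in its length, since seedlings were 11 d or 13 d old at the start. Between the controls 155 genes were called (0.842% of those tested) and 0 members. The members split into 5 higher and 5 lower at 3 d, with a median of -0.02 and a range from -0.26 for IMA1 to 0.29 for BHLH38. Without control 3 d replicate 1 all 10 were lower at 3 d, with a median of -0.56. BHLH38 was then at -0.78 (SE 0.26, unadjusted p 0.0045, adjusted p 0.29 by edgeR). The direction for the Ib genes other than BHLH101, for OPT3 and for BTS thus turned on that library. Without control 1 d replicate 3 instead, 0 of the 10 were lower, with a median of 0.27. The members that were lower in the fit of 14 libraries thus turned on that control.

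Between the durations of ethanol 185 genes were called (1.00% of those tested) and again 0 members. Of the 10 members, 8 were lower at 3 d, and PYE (0.24, SE 0.15) and BTS (0.11, SE 0.12) were higher. The median was -0.37, and without ethanol 1 d replicate 1 it was -0.06 with 6 lower. BHLH39 had the largest difference, -0.95 (SE 0.49, edgeR adjusted p 0.569), going from 7.60 ± 2.37 to 4.40 ± 2.56 CPM (SD, n = 4 each). Without control 3 d replicate 1, which again enters only through the shared spread, its SE was 0.28 and its edgeR adjusted p 0.105.

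Whether the response to ethanol differed between durations was tested by the interaction term. It called 8 genes (0.0434% of those tested) and 0 members. BHLH39 had -1.06 (SE 0.67, edgeR adjusted p 0.944), BHLH38 -0.72 (SE 0.78), PYE 0.38 (SE 0.23, edgeR adjusted p 0.943) and BTS -0.02 (SE 0.18). Of the 10 members 8 were negative, but without control 3 d replicate 1 only BHLH39 was (-0.41, SE 0.41). In the fit of 14 libraries 0 members had an unadjusted edgeR p under 0.05 in the comparisons of durations and the interaction. The shares of all tested genes were 9.34% between the control durations, 10.2% between the ethanol durations and 5.56% for the interaction. The counts without control 3 d replicate 1 were 1 between the control durations (BHLH38), 1 between the ethanol durations (BHLH39) and 0 for the interaction. The shares of all genes without that library are not given here, so these counts say nothing particular to the members. DESeq2 called 0 members in any of the 5 comparisons.

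With 14 libraries no member had groups that did not overlap in any of the 4 pairwise comparisons. Groups that did not overlap were found for 6.12% of all tested genes between ethanol and control at 1 d, 7.75% at 3 d, 15.7% between the control durations and 5.9% between the ethanol durations. Without control 3 d replicate 1, a setting added for this count after the data had been seen, BHLH38, BHLH39, IMA2 and IMA3 lay lower in both remaining 3 d controls than in every 1 d control, beside 26.3% of all genes that did not overlap. PYE then lay higher in every ethanol library at 3 d than in both controls, beside 14% of all genes.

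The Ib and IMA genes differed strongly between libraries of the same group. The SD of log2 CPM within groups was 0.69 for BHLH38, 0.61 for BHLH39, 0.74 for BHLH100 and 0.65 for BHLH101. It was 0.46 for IMA1, 0.55 for IMA2 and 0.43 for IMA3. Each of these was above 99.38% to 99.91% of the genes whose mean level lay within 1.5-fold of its own, where the median SD was 0.11 to 0.32. This is a description of these libraries without a test, and without control 3 d replicate 1 the shares were 98.91% to 99.7%.

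OPT3 (SD 0.17, above 90.8% of genes of like level), BTS (0.22, 92.4%) and PYE (0.23, 68.0%) spread less. Without control 3 d replicate 1 the shares for OPT3 and BTS fell to 81.5% and 71.3%. The biological coefficient of variation fitted by edgeR was 40.4% to 50.5% for the Ib genes and 29.4% to 37.6% for the IMA genes, against 8.64% to 11.3% for OPT3, PYE and BTS and 9.11% as the common value over all genes. In simulated counts for the 3 d comparison over 18419 genes, 93 of 100 genes changed by 1 on the log2 scale and 100 of 100 changed by 2 were called, but those genes carried the spread of genes at large.

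**Figure D3:**
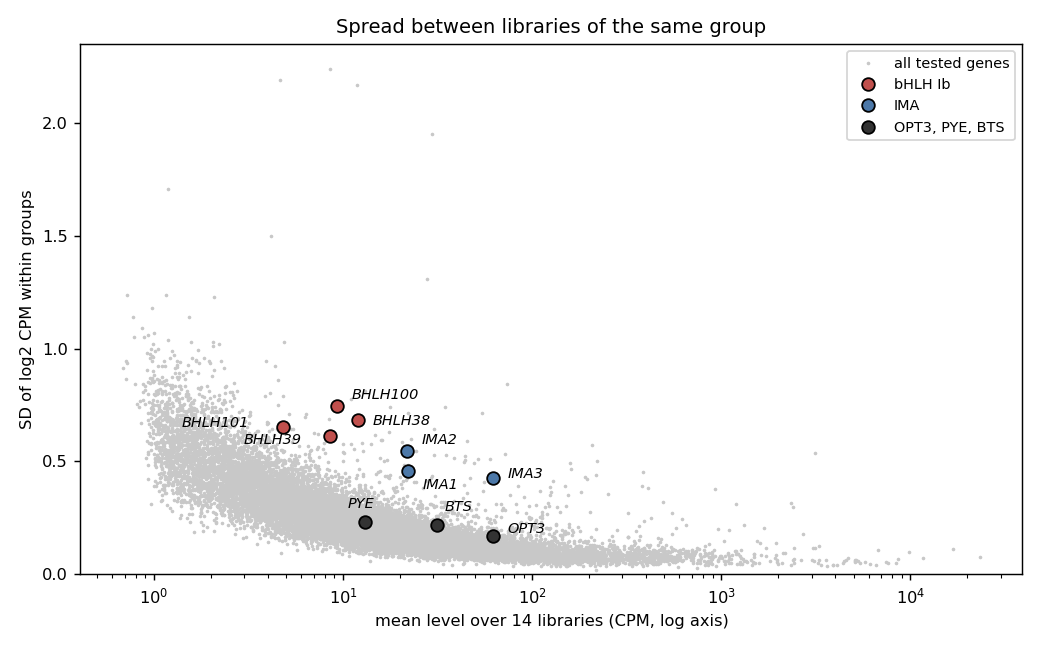
SD of log2 CPM within groups (vertical axis) against the mean level over 14 libraries (horizontal log axis) for all tested genes (grey) and the 10 members (coloured). The Ib genes (SD 0.61 to 0.74) and IMA genes (0.43 to 0.55) lie above the cloud of genes at their level, and PYE, BTS and OPT3 lie in or at its upper edge.

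Several libraries were high for all 10 members. Control 3 d replicate 1 exceeded the mean of the other 3 d controls 4.59-fold for BHLH38, 3.92-fold for BHLH100, 2.86-fold for BHLH39, 2.79-fold for IMA2 and 2.08-fold for IMA3. The ratio was 1.92 for BHLH101, 1.83 for IMA1, 1.495 for BTS, 1.30 for OPT3 and 1.17 for PYE. On the log2 scale the difference for BHLH38 was larger than for 99.96% of tested genes, and for the median tested gene it was near 0.

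Other groups held such a library too. Control 1 d replicate 3 exceeded the other 1 d controls 2.70-fold for BHLH101, 2.53-fold for BHLH100, 2.02-fold for IMA1 and 1.91-fold for IMA2. Ethanol 1 d replicate 1 exceeded its group 2.11-fold for BHLH101, 1.95-fold for IMA1 and 1.73-fold for IMA3. In each of these 3 libraries all 10 members lay above their group mean on the log2 scale, and in control 1 d replicate 2, ethanol 1 d replicate 2 and control 3 d replicate 2 all 10 lay at or below it.

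Pearson's r of the deviations from group means was computed for all 45 pairs of members over 14 libraries, with permutations within groups (100000, two-sided) and Benjamini-Hochberg adjustment over the 45. All 6 pairs of Ib genes passed, with r from 0.679 to 0.879 and the highest adjusted permutation p at 0.024. Spearman's rho for these pairs was 0.705 to 0.855, and all 6 passed on it too. Leaving out the 2 libraries farthest from the median left r at 0.623 to 0.84, and leaving out control 3 d replicate 1 left it at 0.584 to 0.853.

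The 3 pairs of IMA genes had r from 0.743 to 0.904, with 3 passing on r and 2 on rho. Of the 12 pairs of an IMA with an Ib gene 10 passed on r (0.606 to 0.845 over the 12, 0.736 to 0.845 over the 10), but only 5 on rho, and without control 3 d replicate 1 the lowest r was 0.184, for BHLH38 with IMA3. BTS passed with all 4 Ib genes on r (0.691 to 0.798) and with 3 on rho. OPT3 passed with 0 of 4 Ib genes (r over the 4 was 0.497 to 0.68) and PYE with 2 of 4 (over the 4, 0.356 to 0.698). BTS passed with 2 of 3 IMA genes on r (0.701 to 0.927 over the 3) and with 1 on rho. The highest r of the 45 pairs was that of IMA2 with BTS, 0.927 (adjusted permutation p 0.0104), or 0.861 without control 3 d replicate 1. BHLH39 and BHLH101 had r = 0.843 with an adjusted permutation p of 0.002 over the 45 pairs.

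Reads could be shared between some of these genes. The last 500 bases of the BHLH39 transcript matched that of BHLH38 at 88.43% identity over 268 bases, with a longest exact run of 34 bases, and those of IMA1 matched IMA2 at 80.45% over 133 bases, with a longest exact run of 23 bases. Counted from the upstream end of the compared stretch, these matches lay at bases 1 to 268 and 8 to 136, away from the 3′ end where reads are expected. Only the longest match per pair was kept, and sharing of reads was not tested. BHLH101 overlaps AT5G04140 (glutamate synthase 1, opposite strand) by 79 bases, and that gene averaged 1645 counts per library against 39.4 for BHLH101. BHLH38 overlaps AT3G56960 on the opposite strand by 386 bases, a gene with 4.29 counts per library on average. IMA3 overlaps AT2G30760 by 639 bases and AT2G30770 by 572 bases, both on the opposite strand, with 6.07 and 7.71 counts per library on average. The labels and processing notes do not say whether counting used the strand, and without it reads from the 2 strands cannot be told apart, so BHLH101 is the least certain member. AT5G04140 and BHLH101 had r = 0.455 across the 14 libraries on CPM, and AT3G56960 and BHLH38 had 0.54. For IMA3 the values were 0.265 with AT2G30760 and 0.024 with AT2G30770, all a description without a test.

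The genes whose profile over the 14 libraries was most like the mean profile of the Ib genes, among 14356 other genes with at least 5 CPM, were AT1G13609 (r = 0.948, a defensin-like protein in RefSeq), AT2G14247 (0.935), ORG1 (0.896), AT1G53635 (0.879) and AT1G66130 (0.879). For the IMA profile they were AT1G13609 (0.955), ORG1 (0.939), AT2G14247 (0.880), FRO2 (0.871) and AT1G72920 (0.851). They were picked for this likeness, so the values carry no p. AT1G13609 stood at 77.9 CPM in control 3 d replicate 1 and at 31.7 and 35.7 CPM in the other 3 d controls, and it kept first place in both lists, at r = 0.931 and 0.935, without that library.

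Iron genes outside the members were examined from a list of 47, of which 41 passed the filter on low counts. In the fit of 14 libraries 0 of 41 were called in any of the 5 comparisons by edgeR or by DESeq2. Between 1 and 5 of the 41 had an unadjusted edgeR p under 0.05 per comparison, beside 4.32% to 10.2% of all tested genes. At 3 d the smallest p-values were those of NRAMP4, which releases iron from the vacuole (-0.37, SE 0.13, adjusted p 0.267), bHLH121 (0.32, SE 0.11, adjusted p 0.297) and ABCG37, an exporter of coumarins that mobilise iron (-0.31, SE 0.12, adjusted p 0.344), all from edgeR's test. They were -0.30, 0.25 and -0.19 without control 3 d replicate 1, with edgeR adjusted p-values of 0.634, 0.703 and 0.808. ABCG37 also had the smallest p between the ethanol durations (-0.38, SE 0.11, edgeR adjusted p 0.0662), and without control 3 d replicate 1 it was called there at an adjusted p of 0.0496.

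At 1 d the smallest p-values among the listed genes were those of FRO3, a mitochondrial ferric reductase (-0.30, SE 0.13), ORG1 (-0.41, SE 0.23) and ABCG37 (0.16, SE 0.11), all with an edgeR adjusted p of 1.00. Between the control durations they were those of bHLH115 (0.18, SE 0.08), COPT2, a copper transporter (0.25, SE 0.11) and AT3G13610, the enzyme F6'H1 of coumarin synthesis (0.23, SE 0.11), with edgeR adjusted p-values of 0.443 to 0.492, and without control 3 d replicate 1 they were 0.21, 0.12 and 0.20. For bHLH34 the value between the ethanol durations was -0.51 (SE 0.21, edgeR adjusted p 0.339), and the interaction term had its smallest p-values at ABCG37 (-0.47, SE 0.16), NAS4, a nicotianamine synthase (-0.58, SE 0.28), and bHLH121 (0.27, SE 0.16). These interaction values were -0.35, -0.57 and 0.20 without control 3 d replicate 1.

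By role, the 6 upstream bHLH genes had a median log2 fold change of -0.03 at 3 d (range -0.48 to 0.32) and the 9 tested root uptake genes one of -0.31 (range -1.30 to 0.20), with 8 of these 9 below 0. The 14 transport and chelation genes had a median of -0.15 and the 7 storage and other iron-responsive genes one of 0.07. The medians of these 4 lists without control 3 d replicate 1 were -0.05, -0.03, -0.05 and -0.02, so that of the storage list turned its sign. The remaining lists were smaller and had lower medians. The 2 BTS-like ligases had -0.42 and the 3 tested root regulators -0.33, with every gene below 0. Without control 3 d replicate 1 these medians were -0.19 and -0.12. FRO2, the root ferric reductase, went from -0.86 to -0.001 and IRT1, the iron importer, from -0.69 to -0.03 when that library was left out.

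Deviations of the listed genes were set against the mean deviation of the 4 Ib genes, a comparison added after the levels had been seen. Of 41 relations over 14 libraries, 5 had an adjusted permutation p under 0.05 on Pearson's r, with 3 positive and 2 negative, and 0 had one on Spearman's rho, where the lowest was 0.0597. The positive ones were ZIF1, a vacuolar nicotianamine transporter (r = 0.92, adjusted permutation p 0.0273), ORG1 (0.869, 0.0273) and FRO2 (0.825, 0.0298). The negative ones were the ferritins FER3 (-0.82, 0.0298) and FER1 (-0.776, 0.0327), plastid proteins that store iron.

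Without control 3 d replicate 1 these were 0.885 for ZIF1, 0.834 for ORG1, 0.645 for FRO2, -0.735 for FER3 and -0.772 for FER1. Spearman's rho was 0.886, 0.776, 0.763, -0.785 and -0.758 in the same order. Leaving out the 2 libraries farthest from the median (control 1 d replicate 3 and control 3 d replicate 1) left r at 0.87, 0.802, 0.657, -0.772 and -0.746. IRT1 (r = 0.842, adjusted permutation p 0.0594) and CYP82C4, an enzyme of coumarin synthesis (0.809, 0.0594), missed the threshold.

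Some uptake and storage genes took opposite courses in control 3 d replicate 1, but this was not seen in every library. In ethanol 3 d replicate 1 FER1 lay 0.667 above its group mean on the log2 scale, with FRO2 at 0.004 and IRT1 at 0.055. FRO2 stood at 45.4 CPM in control 3 d replicate 1 against 7.75 and 16.8 CPM in the other 3 d controls, and IRT1 at 82.1 against 23.5 and 33.5 CPM. FER1 stood at 94.2 CPM in control 3 d replicate 1 against 187 and 118 CPM, and NEET, an iron-sulphur protein of organelles, at 49.0 against 107 and 73.9 CPM. Over the 9 tested root uptake genes the ratio to the mean of the other 3 d controls ran from 1 (HA2) to 3.86 (CYP82C4). For the ferritins it ran from 0.617 (FER1) to 0.848 (FER2). Of the upstream activators, ILR3 was at 103 CPM against 108 and 97.4, bHLH104 at 29.8 against 33.2 and 27.8, and bHLH115 at 93.5 against 97.0 and 104, and their correlations with the Ib genes were -0.092, -0.009 and -0.426 with adjusted permutation p-values of 0.856, 0.977 and 0.319. bHLH34 and bHLH121 were the lowest of their group there, at 4.57 CPM against 6.23 and 5.82 and at 23.0 CPM against 30.3 and 24.4. Their correlations with the Ib genes were -0.143 and -0.644, with adjusted permutation p-values of 0.714 and 0.226.

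Tissue markers were also summed in control 3 d replicate 1. Its summed root markers were 1402 CPM, the top of the 1358 to 1402 CPM of the 3 d controls, above the 1224 to 1333 CPM of ethanol 3 d and inside the ranges of both 1 d groups. Without PYK10, the most abundant root marker, they were 194 CPM, the highest of the 14 libraries. The lowest, 165 CPM, was that of control 1 d replicate 3, in which all 10 members also lay above their group mean. The summed phloem markers of control 3 d replicate 1 were 459 CPM. Its share of chloroplast-encoded counts was 1.08%, the lowest of all libraries. The other 3 d controls had 1.33% and 1.497%, and the other groups 1.53% to 2.28%. The highest share, 2.28%, was that of ethanol 1 d replicate 1, where all 10 members again lay above their group mean. The part of these differences in the levels of the members was not tested.

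**Figure D4:**
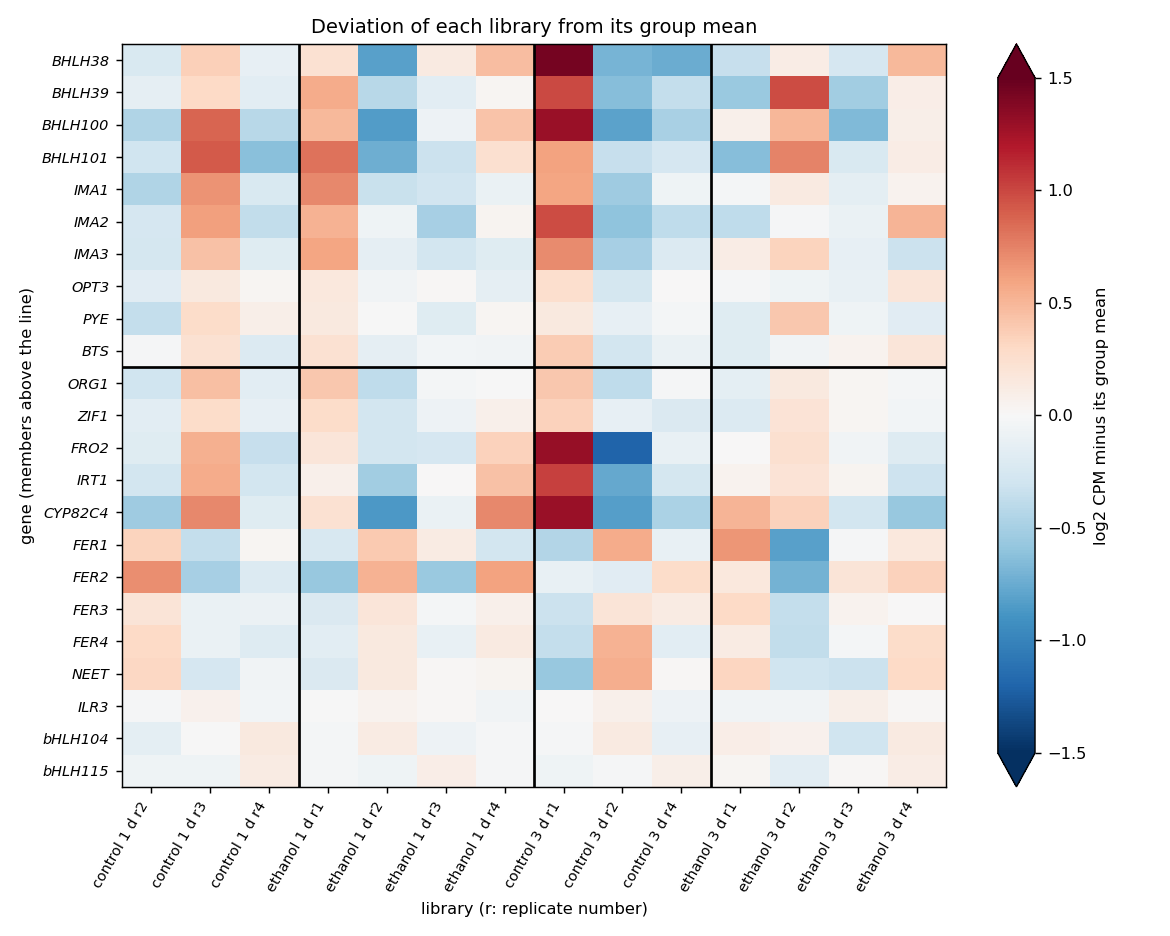
Deviation of log2 CPM from the group mean (colour, red above and blue below) in each of 14 libraries (columns, groups split by lines) for the 10 members (top) and 13 other iron genes picked after their values were seen (bottom). In control 3 d replicate 1, control 1 d replicate 3 and ethanol 1 d replicate 1 all 10 members lie above their group mean. The ferritins FER1 and FER3 lie below theirs in those libraries, FER3 only at -0.0993 in control 1 d replicate 3. ILR3, bHLH104 and bHLH115 are pale in those libraries (-0.0689 to 0.0668), while bHLH104 reaches -0.303 in ethanol 3 d replicate 3.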

How the data were processed

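Whole seedlings were profiled by Lasy-Seq, a 3′-end RNA-seq method, from 200 ng of total RNA per sample, per the labels' protocols. The deposited table holds raw counts per gene for 16 columns, made by the authors with bcl2fastq, Trimmomatic, HISAT2 and featureCounts on TAIR10, per the submitters' processing notes, which also name DESeq2. Versions, strand setting and multi-mapping rules are not stated in those notes. The table was checked for repeated columns: 1 pair of 120 was identical and both were left out, which left 14 libraries. Other pairs of the same group differed by 2.44 to 4.85 in mean chi-square per gene.

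Counts were fitted with edgeR 4.0.16 in R 4.3.3 (TMM scaling, filterByExpr by group, robust quasi-likelihood test, 4 groups in one fit, Benjamini-Hochberg over 18419 genes, threshold 0.05) and, as an alternative, with DESeq2 1.42.0. CPM uses TMM library sizes, log2 CPM a prior count of 2, and SE is the fold change divided by the root of the F statistic. All 10 members are named, along with the 3 listed iron genes of smallest p per comparison and the 5 genes most like each profile; other names were picked with values in view and serve as description. The members and lists were chosen with earlier results of these data known. The fit was tested on simulated data for 18419 genes, with 9 false calls among those left unchanged. Alternatives were RLE scaling, DESeq2, no filter, a replicate block, 3 treatments of the identical columns and leaving out each library. Of the gene codes, 26719 were matched in RefSeq, which gave positions, names and sequences (TAIR10.1), and transcript ends were compared with BLAST 2.17.0.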

Additional observations from a re-analysis of the deposited data

Results flagged for a closer look

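In 2 of the 20 groups of 4 libraries tested (10 members in the 2 ethanol groups), 1 library lay farther from the others than Dixon's 95% critical value of 0.829 for 4 samples; chance flags about 1 in 20 groups. IMA1 stood at 30.3 CPM in ethanol 1 d replicate 1 against 14.5 to 17.1 CPM in the other 3, a gap of 0.836 of the whole range. IMA3 stood at 80.0 CPM in the same library against 43.7 to 48.1 CPM, a gap of 0.877. Both flags fall on the library in which BHLH101 was 2.11-fold and BHLH39 1.68-fold above the mean of its group. The control groups, with 3 libraries each, are too small for this check.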

How the results depend on the processing

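No member was called in any comparison under any of the 21 alternatives. Of 1050 estimates for single members 988 kept their sign and 62 turned it, none of them past the threshold, and the cause was not tested. At 1 d BHLH101 was 0.09125 with 16 columns and 0.0923 with the identical library kept as control 1 d replicate 1; leaving out 1 library gave -0.49 to 0.57 for BHLH101 and -0.53 to 0.11 for IMA2. At 3 d BTS ranged from -0.28 to 0.0612. For control durations IMA2 was 0.00296 with DESeq2; the replicate block gave -0.0490 for BHLH38, -0.191 for BHLH39, -0.0427 for BHLH100 and -0.0414 for OPT3; the identical library kept as control 1 d replicate 1 gave 0.0899 for BHLH101, 0.0823 for IMA2 and 0.0132 for PYE, and kept as control 3 d replicate 3 gave -0.0476 for OPT3. Leaving out 1 library gave -0.78 to 0.66 for BHLH38, -0.53 to 0.41 for BHLH39, -0.67 to 0.87 for BHLH100, -0.43 to 0.57 for BHLH101, -0.58 to 0.19 for IMA1, -0.68 to 0.34 for IMA2, -0.61 to 0.0808 for IMA3, -0.12 to 0.13 for OPT3, -0.32 to 0.0285 for PYE and -0.0769 to 0.26 for BTS. For ethanol durations it gave -0.62 to 0.0593 for BHLH101 and -0.34 to 0.13 for IMA1. For the interaction it gave -1.10 to 0.35 for BHLH38, -1.26 to 0.28 for BHLH100, -0.92 to 0.14 for BHLH101, -0.42 to 0.39 for IMA1, -0.90 to 0.11 for IMA2, -0.47 to 0.21 for IMA3, -0.20 to 0.0479 for OPT3 and -0.15 to 0.19 for BTS; the block gave 0.0524 for IMA3 and 0.0416 for BTS, 16 columns 0.0157 for BTS, and the identical library -0.17 for IMA1 (as control 1 d replicate 1) and 0.0602 for BTS (as control 3 d replicate 3).

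Counts over all genes moved more. Without the filter they were 28, 196, 283, 313 and 47 in the 5 comparisons, in the order of the report, against 0, 102, 155, 185 and 8. With 16 columns, ethanol at 1 d gave 2, at 3 d 66, control durations 5 and the interaction 0; the identical library kept as control 1 d replicate 1 gave 2 at 1 d, 19 for control durations and 4 for the interaction. The replicate block gave 12 at 1 d. Leaving out 1 library gave 0 to 5 at 1 d (5 without control replicate 3, 3 without ethanol replicate 1), 43 to 124 at 3 d (43 without control replicate 1), and 67 to 158 for control durations, with 67 without control 3 d replicate 1, 74 without control 1 d replicate 2 and 85 without control 1 d replicate 4. The interaction gave 1 to 23: 1 without control 1 d replicate 4 or ethanol 3 d replicate 3, 2 without control 3 d replicate 1, 4 without ethanol 3 d replicate 1, 5 without ethanol 1 d replicate 1, 15 without ethanol 3 d replicate 4 and 23 without control 3 d replicate 2.

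Replicate numbers are shared by the labels, and correlations of deviations showed no clear pairing by number. They were -0.123 to 0.0773 (median 0.0287) for 18 pairs with the same number and -0.0801 to 0.139 (median -0.0103) for 55 others. Of 14 libraries 2 correlated best with their own number. The replicate block gave 12, 109, 146, 250 and 10 calls over all genes in the 5 comparisons, against 0, 102, 155, 185 and 8 without it. The SE of the Ib genes ran from 0.42 to 0.85 on the log2 scale over the 5 comparisons, which limits what could be called at these depths and n.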
